A study of Mus musculus with 6 samples.

Results

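Transcripts of the calcium pump of the sarcoplasmic reticulum, of its peptide regulators and of the main calcium buffers of muscle were followed in the gastrocnemius, the large calf muscle, of Tmem182-/- and wild-type mice. The members were taken by gene symbol as a functional group, by a rule that uses no measured value, and all 7 (Atp2a1, Atp2a2, Sln, Pln, Casq1, Casq2 and Pvalb) were found among the 19458 genes listed for each library. Groups were 3 libraries labelled Tmem182-/- and 3 labelled wild type, all from C57BL/6 mice aged 9 weeks with no treatment named in the labels. How the allele was made was not given in the sources used here. Nothing in the labels ties a library to its own animal, and p-values therefore describe only the spread among the 6 samples, some of which may be technical. The source labels of knockout libraries 2 and 3 carry the names tmem183-/- and tmem184-/-, whereas the genotype label is tmem182-/- for all 3.

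Relaxation of a muscle fibre depends on the removal of calcium from the cytosol. SERCA pumps, which are ATP-driven calcium pumps, return it to the sarcoplasmic reticulum, where calsequestrins bind it, and small membrane peptides such as sarcolipin and phospholamban inhibit the pump. In fast-twitch fibres of rodents the soluble protein parvalbumin also binds calcium in the cytosol and speeds relaxation. Atp2a1, Casq1 and Pvalb are the forms of fast fibres, while Atp2a2, Pln and Casq2 are best known from slow fibres and heart.

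Tmem182 stood at 6.23, 4.30 and 2.17 FPKM (fragments per kilobase of transcript, scaled to the library's total) in the libraries labelled knockout and at 120.97 FPKM or more in wild type, so all 6 libraries matched their genotype label. The log2 fold change, knockout over wild type, was -5.02 (SE 0.30, edgeR adjusted p = 0.00391). The edgeR adjusted p was 0.0716 with knockout library 2 left out and 0.0529 with wild-type library 3 left out. Depth ran from 16212341 to 18672630 expected counts per library. Markers of fast fibres summed to between 59523 and 89057 FPKM, whereas cardiac markers summed to at most 3.76 FPKM and the heart gene Mybpc3 was listed at 0 in each library. Knockout library 1 stood apart from the other 5. It had the lowest summed fast-fibre markers, at 59523 FPKM against 76594 FPKM or more elsewhere. Of that list, Myh1 and Myh2 went the other way and were highest there, at 1739 and 1453 FPKM. By summed FPKM, knockout library 1 was also highest in all 8 lists of other cell types. Its endothelial markers, for instance, summed to 133.8 FPKM, compared with 55.4 to 97.4 FPKM, its macrophage markers to 57.8 against 15.3 to 25.4 FPKM, and its erythroid markers to 1895 against 444.5 to 1100 FPKM. The smooth muscle and pericyte sum was 1747 against 1332 to 1571 FPKM, and 1544 FPKM of it came from Des. Satellite cell markers summed to 16.4 against 9.82 to 14.8 FPKM. Single markers in these lists went otherwise. Pax7, at 1.0 FPKM in knockout library 1, lay below all wild-type libraries, and Smtn was highest in wild-type library 1, at 45.1 FPKM. In bulk tissue, fewer fibres of a type and less RNA per fibre cannot be told apart.

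By level, the members fell into 3 abundant transcripts and 4 that were far lower. In every library Atp2a1 was highest, followed by Pvalb and Casq1, and their FPKM ranks among all listed genes lay between 5 and 9 for Atp2a1, 12 and 14 for Pvalb, and 17 and 23 for Casq1. Together these 3 genes took 4.20% of all counts in knockout library 1 and 5.57% to 6.59% in the other 5 libraries. Atp2a1 exceeded Pvalb by 1.26 to 2.27 times within a library, although their ranges over the 6 libraries overlapped. Casq1 lay below Pvalb and above Atp2a2 with no overlap of ranges. Further down, Atp2a2 exceeded Casq2 in 6 of 6 libraries (3.36 to 13.0 times), Casq2 exceeded Sln in 5 of 6 (0.83 to 10.2 times) and Sln exceeded Pln in 6 of 6 (1.18 to 21.4 times), but in these 3 steps the ranges over libraries overlapped. Wild-type library 2 was the exception to the order, with Sln above Casq2.

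**Figure D1:**
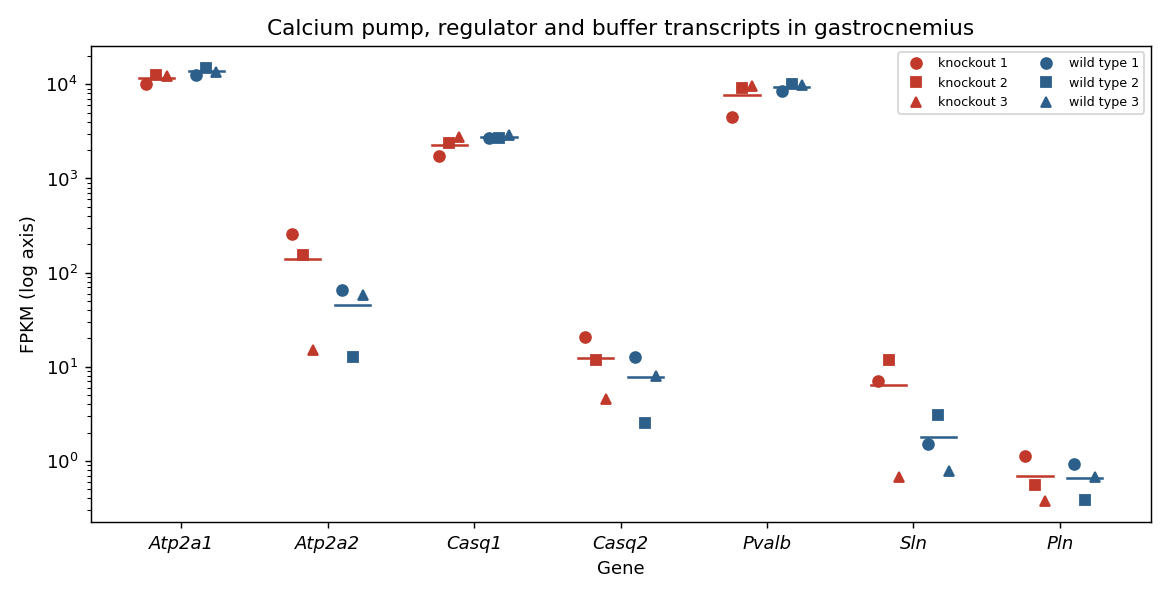
Level of each of the 7 genes in FPKM on a log axis, for 3 knockout libraries (red) and 3 wild-type libraries (blue), with horizontal lines at the group means. Atp2a1, Pvalb and Casq1 lie above 1718 FPKM in each library, while Atp2a2 spans 12.83 to 254.53 FPKM with high and low libraries in both groups.

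No member passed the test between genotypes. In edgeR's quasi-likelihood test over 12774 genes, 0 of 7 members passed an adjusted p of 0.05, where 0.00783% of all genes tested did (Tmem182 alone), and 0 of 7 reached an unadjusted p under 0.05, where 3.55% of all genes did. All 7 members were high enough in counts to be tested. The FPKM ranges of knockout and wild type overlapped for each member, and 7.55% of all genes tested had ranges that did not overlap (5.86% higher and 1.7% lower in the knockout). By the DESeq2 Wald test 6 genes passed (0.047% of those tested), with no member among them. The size of each member's difference and its 95% interval are given gene by gene, since a missed threshold does not show equal levels.

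Atp2a1 encodes SERCA1, the pump of fast fibres. It stood at 10086.74, 12661.52 and 12245.36 FPKM in knockout libraries 1, 2 and 3 and at 12537.90, 15057.52 and 13456.91 FPKM in wild-type libraries 1, 2 and 3. All 3 knockout libraries lay under the wild-type median, and knockout library 2 lay above the lowest wild-type library. Group means were 11665 ± 1382 FPKM and 13684 ± 1275 FPKM (SD, n = 3 each). The fitted log2 fold change was -0.28 (SE 0.29, 95% interval -0.94 to 0.39, edgeR adjusted p = 0.994), or -0.10 without knockout library 1. Atp2a1 spans chr7:126445858-126463108 (- strand, GRCm38), and its span overlaps the protein-coding gene Rabep2 on the opposite strand.

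Atp2a2 encodes SERCA2, whose muscle form is the pump of slow fibres and heart. The knockout libraries 1, 2 and 3 had 254.53, 154.53 and 15.20 FPKM, and the wild-type libraries had 65.92, 12.83 and 57.45 FPKM. Knockout libraries 1 and 2 thus lay above all wild-type libraries, while knockout library 3 was close to the lowest wild-type library. The spread was 16.7-fold within the knockout and 5.14-fold within wild type, against a fitted difference of 1.5 on the log2 scale (SE 0.88, 95% interval -0.55 to 3.55, edgeR adjusted p = 0.994). Without knockout library 1 the log2 fold change was 0.94, and with lower weight for deviating libraries in limma-voom it was 0.69. Atp2a2 spans chr5:122453513-122502225 (- strand, GRCm38).

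Atp2a1 made up nearly all of the summed pump FPKM in all libraries. As a share of the summed pump FPKM, Atp2a2 made up 2.46%, 1.21% and 0.124% in knockout libraries 1 to 3 and 0.523%, 0.0851% and 0.425% in wild type. Knockout libraries averaged 1.26% ± 1.17 and wild-type libraries 0.344% ± 0.230 (SD, n = 3 each), with p = 0.3 in a two-sided exact permutation test and 0.5 after adjustment over the 5 ratios compared. The difference of the means was 0.919 percentage points, and 0.32 without knockout library 1. With 3 against 3 libraries this exact permutation test cannot go below p = 0.1. The 2 pump genes were the only members whose expected counts were not whole numbers, in 6 of 6 libraries, and RSEM, named in the submitters' processing notes, gives such fractions where it divides a read among genes. In wild-type library 2 the Atp2a2 count was 0.109% of the Atp2a1 count, and in knockout library 3 it was 0.158%. Values as low as these are the least certain, since a small share of divided reads could change them, and the size of that share was not tested.

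**Figure D2:**
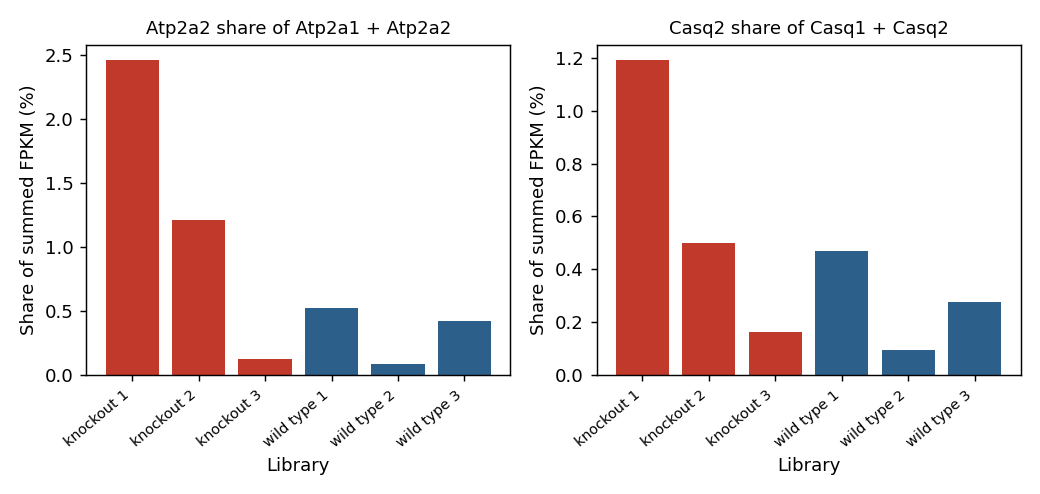
Share of Atp2a2 in the summed FPKM of Atp2a1 and Atp2a2 (left) and share of Casq2 in the summed FPKM of Casq1 and Casq2 (right), in percent, for each of the 3 knockout (red) and 3 wild-type (blue) libraries. Both shares are highest in knockout library 1 (2.46% and 1.19%) and lowest in wild-type library 2 (0.0851% and 0.0938%).

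Sarcolipin and phospholamban are among the smallest proteins of muscle, and their whole coding sequences are shown because the inhibitor transcripts compared here encode little else. The start and stop codons are in capitals, the sequences are from GENCODE M21 on GRCm38, and they encode 31 and 52 amino acids.
Sln: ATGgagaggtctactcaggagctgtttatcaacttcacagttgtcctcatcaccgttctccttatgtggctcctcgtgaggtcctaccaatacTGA
Pln: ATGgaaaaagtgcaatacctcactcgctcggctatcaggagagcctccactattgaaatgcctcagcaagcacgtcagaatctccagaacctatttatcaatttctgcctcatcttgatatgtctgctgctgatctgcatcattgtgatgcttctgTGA
Sln spans chr9:53850164-53854560 (+ strand, GRCm38), with 1 annotated transcript of 1318 bases and no overlapping gene. Pln spans chr10:53337667-53345987 (+ strand, GRCm38), with 6 annotated transcripts that share 1 coding sequence, and Cep85l overlaps it on the opposite strand. Whether the counting used strand was not given in the sources used here.

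Sln had the largest fitted difference of the members with all 6 libraries, but Atp2a2 exceeded it when knockout library 2, wild-type library 1 or wild-type library 3 was left out, and in limma on log2(FPKM + 1) (1.19 against 1.08). Its FPKM were 7.03, 11.76 and 0.68 in knockout libraries 1, 2 and 3 and 1.5, 3.05 and 0.79 in the wild-type libraries. Knockout libraries 1 and 2 lay above all wild-type libraries, and knockout library 3 was the lowest of the 6. These values rest on 56, 104 and 6 counts in the knockout and on 13, 28 and 7 counts in wild type. Exact 95% Poisson intervals, which cover counting error only, were 85.0 to 126.0 for knockout library 2, 18.6 to 40.5 for wild-type library 2 and 2.2 to 13.1 for knockout library 3. The differences among these 3 libraries were thus larger than counting error. The fitted log2 fold change was 1.78 (SE 0.86, 95% interval -0.23 to 3.8, unadjusted p = 0.0753, edgeR adjusted p = 0.994), and without knockout library 2 it was 0.87. In relation to its target, Sln reached 0.0680%, 0.0918% and 0.00555% of the summed pump FPKM across the knockout, and 0.0119%, 0.0202% and 0.00585% across wild type. The log2 of this ratio differed by 1.54 between groups (exact permutation p = 0.4, adjusted p = 0.5 over the 5 ratios), with 0.793 when knockout library 2 and 2.82 when knockout library 3 was left out.

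Pln was close to 1 FPKM or below throughout. The knockout libraries had 1.13, 0.55 and 0.38 FPKM from 44, 24 and 17 counts, and the wild-type libraries had 0.92, 0.39 and 0.67 FPKM from 39, 17 and 29 counts. The groups covered nearly the same range, and the fitted log2 fold change was -0.02 (SE 0.41, 95% interval -0.97 to 0.93, edgeR adjusted p = 0.999). The sign of so small a value changed with the scaling, to 0.08 with library totals in place of TMM factors. Pln varied less than the pump it inhibits: the highest library exceeded the lowest 2.97-fold for Pln and 19.8-fold for Atp2a2. Pln amounted to 0.444%, 0.356% and 2.50% of Atp2a2 FPKM across the knockout, and to 1.4%, 3.04% and 1.17% across wild type. This ratio was highest in the 2 libraries where Atp2a2 was lowest, which follows largely from the wider range of Atp2a2, its divisor. The log2 value of the ratio differed by -1.22 between groups (exact permutation p = 0.3, adjusted p = 0.5), with values from -2.1 to -0.694 when single libraries were left out.

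Casq1 encodes the calsequestrin of fast fibres, the high-capacity calcium binder inside the reticulum. It stood at 1718.31, 2363.47 and 2751.45 FPKM in knockout libraries 1 to 3 and at 2685.42, 2694.15 and 2931.25 FPKM in wild type. Knockout libraries 1 and 2 lay below all wild-type libraries and knockout library 3 among them. Wild-type libraries agreed closely, with a highest-to-lowest ratio of 1.09 against 1.60 in the knockout. The fitted log2 fold change was -0.32 (SE 0.27, 95% interval -0.95 to 0.31, edgeR adjusted p = 0.994), and it was -0.08 without knockout library 1. Casq1 spans chr1:172209894-172219868 (- strand, GRCm38), overlapped on the opposite strand by the annotated antisense gene Gm17224.

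Casq2, the calsequestrin of heart that slow fibres also express, had 20.77, 11.86 and 4.52 FPKM in knockout libraries 1 to 3 and 12.67, 2.53 and 8.09 FPKM in wild type. High and low libraries occurred in both groups, and knockout library 1 alone exceeded all wild-type libraries. The fitted log2 fold change was 0.57 (SE 0.58, 95% interval -0.79 to 1.93, edgeR adjusted p = 0.994). It was 0.14 without knockout library 1, 0.15 without wild-type library 2 and 1.04 without wild-type library 1. Casq2 made up 1.19%, 0.499% and 0.164% of calsequestrin FPKM across the knockout, and 0.470%, 0.0938% and 0.275% across wild type (exact permutation p = 0.4, adjusted p = 0.5). The difference of the means was 0.34 percentage points, and 0.0521 without knockout library 1. Casq2 spans chr3:102086415-102146514 (+ strand, GRCm38).

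The 250 bases before the annotated start of Casq1, Casq2 and Pvalb are shown as those of the buffers, of which Casq2 had a profile across libraries unlike that of Casq1 and Pvalb. They are from RefSeq on GRCm38.p6, whose table matched 5 of the 7 members (all but Atp2a2 and Sln), and capitals mark matches to the E-box CANNTG, the element bound by myogenic bHLH factors, or to the MEF2 motif, searched on both strands as was TATAAA.
Casq1: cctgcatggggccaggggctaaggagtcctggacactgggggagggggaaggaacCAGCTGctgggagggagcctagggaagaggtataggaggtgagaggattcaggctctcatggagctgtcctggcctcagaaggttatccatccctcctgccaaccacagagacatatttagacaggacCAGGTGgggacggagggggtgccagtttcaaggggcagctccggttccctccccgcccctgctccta
Casq2: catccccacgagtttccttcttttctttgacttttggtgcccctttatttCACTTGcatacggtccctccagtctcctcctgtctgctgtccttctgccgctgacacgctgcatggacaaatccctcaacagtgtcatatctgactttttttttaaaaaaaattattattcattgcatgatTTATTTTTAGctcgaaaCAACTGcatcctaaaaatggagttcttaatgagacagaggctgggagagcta
Pvalb: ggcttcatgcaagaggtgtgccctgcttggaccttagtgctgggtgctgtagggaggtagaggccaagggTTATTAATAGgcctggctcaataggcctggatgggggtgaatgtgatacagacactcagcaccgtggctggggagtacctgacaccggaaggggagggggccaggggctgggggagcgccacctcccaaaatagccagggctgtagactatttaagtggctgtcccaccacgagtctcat
The windows are chr1:172219896-172220145 on the - strand for Casq1, chr3:102086165-102086414 on the + strand for Casq2 and chr15:78206401-78206650 on the - strand for Pvalb. The Casq1 window holds 2 E-boxes, CAGCTG and CAGGTG, whose first bases lie 195 and 67 bases before the start, and no MEF2 match. The Casq2 window holds CACTTG at 200 and CAACTG at 52 bases before the start, with a MEF2 match at 69 bases. In the Pvalb window a MEF2 match lies 180 bases before the start and there is no E-box, while the window of its second annotated start has 1 E-box and no MEF2 match. E-boxes were in 66.2% and MEF2 matches in 2.9% of the 32851 windows of this length in the table, and no 2 of these matches overlap. Atp2a1 and Pln each have 1 E-box, CAGCTG at 55 and CACATG at 59 bases, and no MEF2 match. Of these members' windows, TATAAA was found in that of Pln alone, 219 bases before the start, and in 12.4% of all windows. A match describes the letters and does not show binding.

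Parvalbumin, the cytosolic buffer encoded by Pvalb, stood at 4446.56, 9205.30 and 9691.10 FPKM in knockout libraries 1 to 3 and at 8436.84, 10089.19 and 9785.81 FPKM in wild type. Knockout library 1 lay far below the other 5 libraries, and knockout libraries 2 and 3 lay inside the wild-type range. The fitted log2 fold change was -0.30 (SE 0.37, 95% interval -1.16 to 0.57, edgeR adjusted p = 0.994), and without knockout library 1 it turned to 0.04. Relative to Atp2a1, Pvalb was at 44.1% in knockout library 1, whereas the remaining libraries had 67.0% to 79.1%. The log2 ratio differed by -0.123 between groups (exact permutation p = 0.9, adjusted p = 0.9) and by 0.138 without knockout library 1. Pvalb spans chr15:78191114-78206400 (- strand, GRCm38), and no other annotated gene overlaps it.

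**Figure D3:**
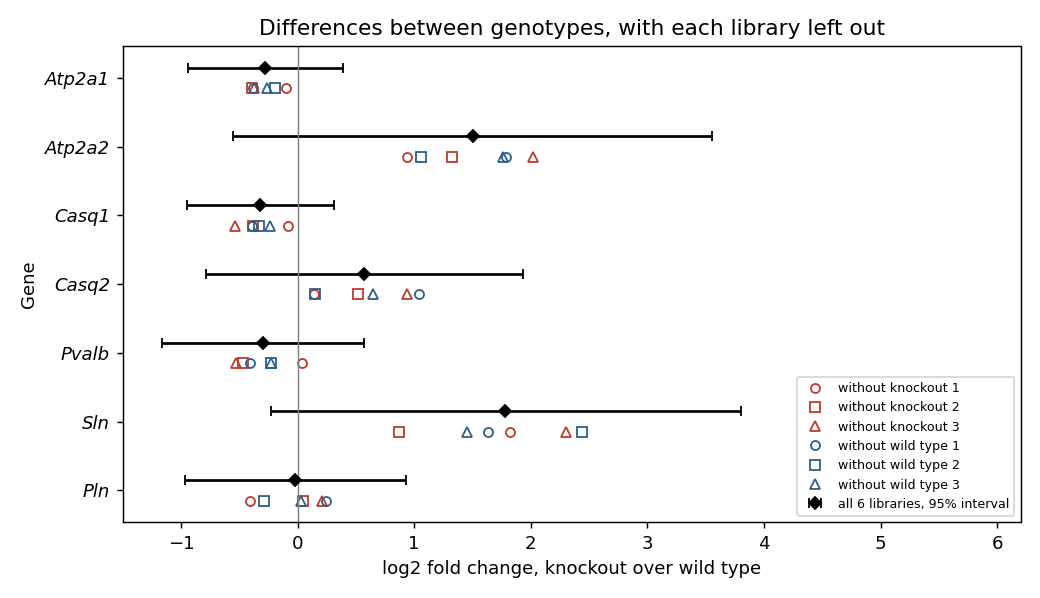
Log2 fold change of each gene, knockout over wild type, from edgeR on all 6 libraries (black diamonds, bars for the 95% interval) and with 1 library left out (open symbols, red for a knockout and blue for a wild-type library). All 7 intervals include 0, and leaving out knockout library 1 brings Atp2a1, Casq1 and Pvalb to -0.10, -0.08 and 0.04.

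Across libraries the fast-fibre members shared their lowest library, but not the order of the others. From the highest, knockout library 3 was at rank 4 for Atp2a1, 2 for Casq1 and 3 for Pvalb. On centred log2 CPM (counts scaled to the library's TMM-adjusted total, minus the gene's mean over the 6 libraries) the root mean square difference between profiles was 0.15 for Atp2a1 and Casq1, 0.20 for Casq1 and Pvalb, and 0.28 for Atp2a1 and Pvalb. This difference is small between any genes that vary little. Knockout library 1 was lowest for all 3 members, at -0.57 for Atp2a1, -0.78 for Casq1 and -1.15 for Pvalb. The fast myosin Myh4 was at -1.02 and the fast troponin I gene Tnni2 at -0.48 in the same library. The other fast myosins, Myh2 and Myh1, went the opposite way there, at 2.17 and 1.80, their highest of the 6 libraries. The summed FPKM of markers of other cell types were highest in knockout library 1 too, and the part of those cells in these values was not tested.

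On the log2 CPM scale Atp2a2 and Casq2 shared an order of libraries. From the highest, both ran through knockout libraries 1 and 2, wild-type libraries 1 and 3, knockout library 3 and wild-type library 2. For Casq2, knockout library 2 and wild-type library 1 were close, at 0.60 and 0.57 above its mean. By FPKM these libraries were in reverse order for Casq2, at 11.86 and 12.67. Mean log2 CPM of 8 slow-fibre markers that include no member ran in nearly the shared order, at 8.11, 7.82, 6.58 and 6.47, with wild-type library 2 at 3.38 and knockout library 3 at 3.07. The order of the last 2 libraries depended on the measure. By summed FPKM of the same 8 markers, knockout library 3 was at 93.0 and wild-type library 2 at 77.0, as for Atp2a2 and Casq2. Single markers differed too: the slow myosin Myh7 was at 1.34 FPKM in knockout library 3 and 5.71 FPKM in wild-type library 2, and the light chain gene Myl2 at 28.45 and 14.03 FPKM. Tnni1, Tnnt1, Tnnc1 and Tpm3 were lower in knockout library 3, like Myh7, while Myl3 and Myoz2 were higher there, like Myl2. From knockout library 1 to knockout library 3 the FPKM ratio was 16.7 for Atp2a2 and 4.6 for Casq2. Contractile genes lay on both sides of Atp2a2, with 206.9 for Myh7 and 144.0 for Tnni1 but 8.92 for the oxidative fast myosin Myh2. With genes divided into 5 equal classes by mean level, the wild-type SD of log2 CPM was 1.27 for Atp2a2 and 1.15 for Casq2, against a median of 0.12 in the class of each. It was larger than that of 99.4% and 99.6% of the genes in the class.

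With the slow-marker level as a covariate in the edgeR fit, the genotype differences of Atp2a2, Casq2 and Sln became smaller, and that of Pln did not. Atp2a2 went from 1.5 to 0.53 on the log2 scale (SE 0.12, 95% interval 0.25 to 0.80, unadjusted p = 0.00249), but did not pass over all genes (adjusted p = 1.0). Casq2 went from 0.57 to 0.22 (SE 0.24) and Sln from 1.78 to 1.12 (SE 0.95), both with an edgeR adjusted p of 1.0. The fast-fibre members changed little, to -0.22 for Atp2a1, -0.28 for Casq1 and -0.23 for Pvalb. Pln went from -0.02 to -0.24 (SE 0.31).

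**Figure D4:**
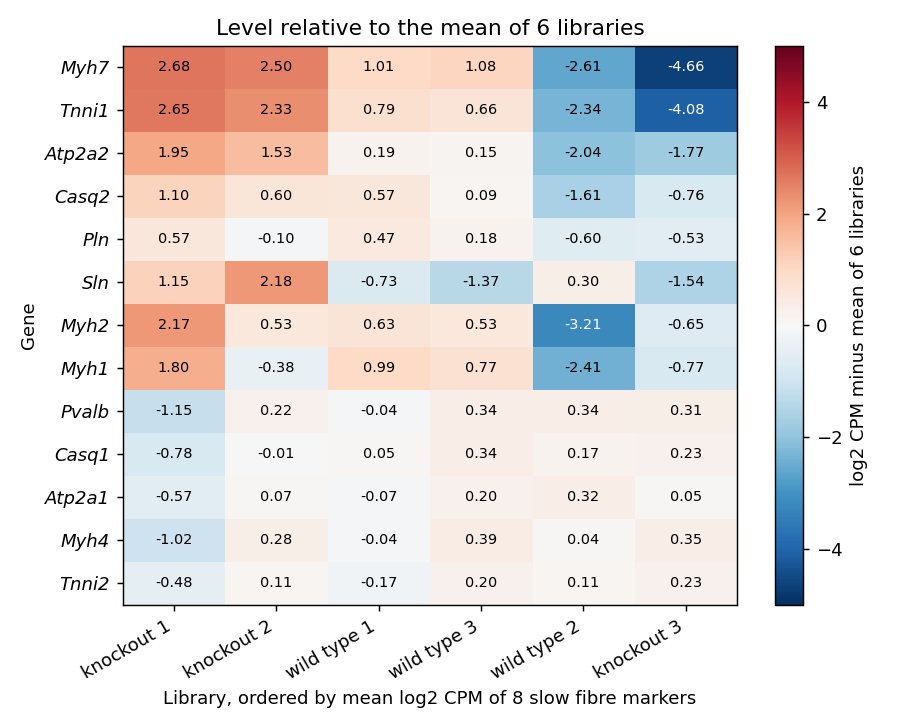
Log2 CPM minus the mean of the 6 libraries for the 7 genes and 6 fibre-type genes, with libraries ordered by the mean of 8 slow-fibre markers from high (left) to low (right) and the value printed in each cell. Atp2a2, Myh7 and Tnni1 are all highest in knockout library 1, where Atp2a2 is at 1.95. Atp2a2 is lowest in wild-type library 2 (-2.04), whereas Myh7 and Tnni1 are lowest in knockout library 3 (-4.66 and -4.08). Pvalb, Casq1 and Atp2a1 are low in knockout library 1, and Sln is at 0.30 in wild-type library 2 where Atp2a2 is at -2.04.

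Sln followed neither pattern. The order of Sln from the highest was knockout libraries 2 and 1, wild-type libraries 2, 1 and 3, then knockout library 3. Wild-type libraries 1 and 3 and knockout library 3 had 13, 7 and 6 counts. Their 95% Poisson intervals (6.92 to 22.2, 2.81 to 14.4 and 2.2 to 13.1) overlap, so the order among them is not resolved. In wild-type library 2, the lowest library for Atp2a2 and Casq2, Sln was exceeded by knockout libraries 1 and 2 alone, at 0.30 above its mean. In wild-type libraries 1 and 3, where Atp2a2 was 0.19 and 0.15 above its mean, Sln was at -0.73 and -1.37. Its profile differed from each other member by 1.27 or more. Pln was nearest to Casq2 among the members, at 0.56, and 1.17 from Atp2a2.

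Among 6126 tested genes with a mean of at least 5 FPKM, the profiles most like each member over the 6 libraries were then listed by the same root mean square difference. For Atp2a2 they were Tpm3, the slow tropomyosin (0.32), Pdk4, a kinase that inhibits pyruvate dehydrogenase (0.34), and Myl3, the slow myosin light chain (0.41). For Casq2 they were Pdlim1, a PDZ-LIM scaffold protein (0.10), Fndc5, the precursor of irisin (0.20), and the growth factor Fgf1 (0.20). Pdlim1, for example, was at 54.07, 27.54 and 10.92 FPKM in knockout libraries 1 to 3 and 26.68, 5.73 and 19.94 FPKM in wild type. The nearest to Casq1 included Mylpf, the fast regulatory light chain (0.04), and Pdlim7 (0.06), while Pvalb was nearest to Mybpc2, the fast myosin-binding protein C (0.08), Gm42102 (0.09) and Tiam1 (0.10). Atp2a1 was nearest to Zdhhc4 (0.04), Pnpla7 (0.05) and the glycolytic enzyme Aldoa (0.05). Pln was nearest to Thbs4, thrombospondin 4 (0.06), Dhrs4 (0.07) and Ybx2 (0.10). Sln had no close counterpart among the genes searched, which left out genes with a mean under 5 FPKM, as its own was. Its nearest profiles were the immediate early gene Fos (0.87), the mitochondrial uncoupling protein Ucp3 (0.88) and the signalling inhibitor Socs2 (0.97). Counts of Sln were as low as 6, and the part of counting error in these distances was not tested. These are descriptions over 6 libraries, and with 1 library left out or on an FPKM scale none of a member's 3 nearest genes was retained in 6 of 49 cases.

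Other regulators of the pump varied less. Mrln, which encodes the SERCA inhibitor myoregulin, was at 29.78, 49.02 and 44.31 FPKM across the knockout, and 37.97, 38.29 and 46.01 FPKM across wild type, above Sln and Pln in each library. 1810037I17Rik, which encodes another inhibitory peptide of the pump, was at 9.06 to 14.66 FPKM across the knockout, and 9.62 to 11.65 FPKM across wild type, and Atp2a3, the remaining pump gene, at 1.54 to 3.95 and 2.05 to 2.77 FPKM. Of 5 genes listed as relatives or further regulators, 3 were in the tables and tested, and 0 passed in either direction (median log2 fold change -0.02, against 0.00 over all genes). The log2 difference of Mrln was -0.02 (SE 0.26), or 0.01 with library totals in place of TMM factors. For Atp2a3 it was -0.07 (SE 0.28), or 0.05 with library totals, and for 1810037I17Rik 0.03 (SE 0.15).

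The rest of the calcium pathway was described by 6 further lists, in which 0 genes passed an adjusted p of 0.05 in either direction by edgeR. Among 21 tested genes of the triad, where the surface membrane meets the reticulum and calcium is released, 6 had a higher and 15 a lower fitted value, where 6530 of all genes tested were higher and 6244 lower. Their median log2 fold change was -0.08, and it turned to 0.02 without knockout library 1. Ryr3, a minor ryanodine receptor at no more than 0.59 FPKM, differed by 0.91 on the log2 scale (SE 0.47), or 0.32 without knockout library 3, the counter-ion channel gene Tmem38b by 0.17 (SE 0.10) and the calcium channel subunit gene Cacnb1 by -0.23 (SE 0.15). Of 9 tested cytosolic buffers and sensors the median was 0.10. Tnnc1, the slow troponin C, was at 257.27, 186.24 and 2.14 FPKM, compared with 62.71, 6.87 and 64.40 FPKM (log2 fold change 1.60, SE 1.24). As for Atp2a2, knockout libraries 1 and 2 were highest, and knockout library 3 and wild-type library 2 were low. The lowest was knockout library 3 for Tnnc1 but wild-type library 2 for Atp2a2. The log2 difference was 0.29 (SE 0.19) for Sri, encoding sorcin, and 0.13 (SE 0.11) for Anxa6.

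Among 14 tested genes of surface calcium removal and store-operated entry the median log2 fold change was 0.01. The sodium-calcium exchanger gene Slc8a1 was at 2.51, 2.45 and 1.61 FPKM across the knockout libraries, compared with 1.77, 1.58 and 1.26 FPKM (log2 fold change 0.45, SE 0.16, unadjusted p = 0.0245, edgeR adjusted p = 0.994). The log2 fold change was 0.26 (SE 0.27) for Orai2 and 0.10 (SE 0.10) for the surface calcium pump gene Atp2b1. Of 9 tested genes of mitochondrial calcium uptake (median 0.04), Micu2, a gatekeeper of the uniporter, was at 18.61, 14.04 and 14.58 FPKM, compared with 11.81, 11.08 and 12.21 FPKM. All 3 knockout libraries lay above all wild-type libraries, as in 5.86% of all genes tested, and the log2 fold change was 0.35 (SE 0.10, unadjusted p = 0.00722, edgeR adjusted p = 0.994). Micu3 and Slc8b1 differed on the log2 scale by -0.18 (SE 0.20) and 0.15 (SE 0.21).

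In 16 tested kinases, phosphatase subunits and other genes that act on phospholamban or the pump the median was -0.01. Ppp1cb, a catalytic subunit of protein phosphatase 1, was at 61.35, 53.39 and 54.02 FPKM, compared with 52.80, 40.54 and 48.52 FPKM. All its knockout libraries lay above all wild-type libraries, as in 5.86% of all genes tested. The nearest libraries of the groups were at 53.39 and 52.80 FPKM. Its log2 fold change was 0.19 (SE 0.12, edgeR unadjusted p = 0.158). Camk2b and Ppp1ca differed on the log2 scale by -0.16 (SE 0.12) and -0.18 (SE 0.14). Among 10 tested calcium-binding chaperones and related proteins of the endoplasmic reticulum 8 had a higher and 2 a lower fitted value (median 0.15, or 0.05 without knockout library 1 and 0.04 with quality weights in limma-voom). Hspa5, the chaperone BiP, was at 56.86, 45.03 and 40.71 FPKM, compared with 38.28, 33.73 and 36.36 FPKM. Its knockout libraries also lay above all wild-type libraries, again as in 5.86% of all genes tested (log2 fold change 0.32, SE 0.10, unadjusted p = 0.0124, edgeR adjusted p = 0.994). Hsp90b1 and Canx, at 0.34 (SE 0.17) and 0.30 (SE 0.15), had their highest level in knockout library 1, at 44.13 and 18.93 FPKM, and Hspa5 did too. The part of the other cell types whose summed marker FPKM were highest in that library was not tested.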

How the data were processed

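RNA-seq of 6 gastrocnemius libraries was used, although the labels' extraction protocol mentions cells in culture. The deposited tables hold expected counts, of which 26.2% to 27.5% per library are not whole numbers, and FPKM values, both made by the authors, per the file headers. The submitters' processing notes name HISAT2 2.0.4, Bowtie2 2.2.5, RSEM 1.2.12 and GRCm38. Their roles, the annotation and the handling of strand were not given in the sources used here.

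Expected counts were rounded, filtered by filterByExpr (minimum count 10), scaled by TMM and tested with edgeR 4.0.16 in R 4.3.3 by a two-sided quasi-likelihood test without covariates, with Benjamini-Hochberg adjustment over 12774 genes and a threshold of 0.05. The SE comes from dividing the size of the log2 fold change by the root of F. Log2 CPM used a prior count of 2. The test was first tried on simulated data. Alternatives covered single libraries left out, the replicate block, filters, scalings, DESeq2 1.42.0, limma 3.58.1 with log2(FPKM + 1) or log2(FPKM + 0.1), limma-voom with quality weights, and a slow-fibre covariate.

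Members and lists were chosen with earlier results of these data known. Named genes are the members, Tmem182, 6 fibre genes, the 3 genes with the smallest p in each list and the 3 nearest profiles of each member. Mybpc3, Myl2, Tnnt1, Myoz2, Des, Pax7 and Smtn were named after their values were seen. Of the nearest profiles, 1 is not reported here.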

Additional observations from a re-analysis of the deposited data

How the results depend on the processing

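Over 115 alternatives for the 7 members, 0 brought a member past the threshold (smallest adjusted p 0.689) and 6 turned a direction. Pln ranged from -0.41 to 0.24 with each library left out, turning in 4 of 6 cases, and was 0.08 with library totals. Pvalb ranged from -0.53 to 0.04. The other members kept their sign with each library left out: Atp2a1 -0.39 to -0.10, Casq1 -0.54 to -0.08, Casq2 0.14 to 1.04, Atp2a2 0.94 to 2.02 and Sln 0.87 to 2.44. Pln and Sln were not tested with a mean of at least 5 FPKM, and Pln was not tested by limma on FPKM. Genes past the threshold numbered 0 or 1 with each library left out and 6 with DESeq2. Tmem182 ranged from -5.26 to -4.75, and missed the threshold when knockout library 2 (-5.11) or wild-type library 3 (-5.03) was absent.

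The log2 ratio of Pvalb to Atp2a1 ranged from -0.285 to 0.138. Among pathway genes, directions turned with library totals for Atp2a3 (0.05) and Mrln (0.01), with the slow-fibre covariate for Mrln (0.0036) and for Tnnc1 (-0.29), which is itself 1 of the 8 markers that form that covariate, and with limma-voom for Mrln (0.11). With each library left out, Atp2a3 ranged from -0.49 to 0.11, 1810037I17Rik from -0.07 to 0.13, Mrln from -0.22 to 0.23, Micu3 from -0.31 to 0.04 and Slc8b1 from -0.01 to 0.27. The cause was not tested.

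With the replicate number as a block, 1 gene passed and no call changed. Atp2a2 was 1.31, Sln 1.64 (unadjusted p = 0.00621, adjusted p = 0.845) and Pvalb -0.42. Deviations of same-numbered libraries correlated at 0.524, 0.179 and -0.122, and those of differently numbered libraries at -0.474 to 0.427. The labels state no batch, and the numbers were not used as pairs in the main fit. Counts of 6 to 104 for Sln and 17 to 44 for Pln limit what their values can resolve.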
